A study of Mus musculus with 4 samples.

Results

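Cholesterol synthesis and sterol control are described here through 29 genes: 19 enzymes that build cholesterol from acetyl-CoA, 5 genes of the SREBP control system, and 5 genes of sterol transport, efflux, nuclear receptor control and turnover. The members were taken from a list of pathway genes matched by symbol, and all 29 of them, among 78334 identifiers in the counts table, passed the low-count filter that left 11427 genes. Messenger RNA was counted in cells panned with Thy1 and sorted for mCherry as retinal ganglion cells of wild-type mice of both sexes and 8 to 12 weeks of age, 2 weeks after an optic nerve crush (ONC). The control group received an adeno-associated virus of serotype 2 (AAV2) with mCherry and a scramble shRNA, and the other group the same serotype with mCherry and an anti-miR132-3p shRNA, injected into the eye at 8 weeks of age and 2 weeks before the crush. All groups had the crush and a virus, so nothing here compares injured with uninjured cells. About 5000 cells entered each library, 10 retinas were pooled per condition, and about 40% of ganglion cells were transduced, per the labels' protocols.

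Cells make cholesterol from acetyl-CoA through HMG-CoA, mevalonate, farnesyl diphosphate and squalene, which is closed to lanosterol and then trimmed and reduced to cholesterol. The sterol-responsive factors SREBP1 and SREBP2 are held in the endoplasmic reticulum by the escort protein SCAP and the INSIG proteins when sterols are plentiful, and are released to raise transcription of these enzymes when sterols are scarce. Liver X receptors respond to oxidised sterols and raise the efflux transporters ABCA1 and ABCG1. Adult neurons also turn cholesterol into 24S-hydroxycholesterol with CYP46A1, an enzyme that is known for its neuronal expression and is present in retinal ganglion cells.

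The microRNA that the treatment was aimed at and the designed inserts of both vectors are shown first, as the designed difference between the groups. With them are the 7-letter matches to the microRNA's seed found in the 3' UTRs of the 29 members. The search took 1 annotated transcript per gene, and shorter or shifted matches were not searched. The mature miR-132-3p lies on mouse chromosome 11 at 75173723 to 75173744 of the plus strand (RefSeq, GRCm38.p6), in the gene Mir132. Capitals mark the seed (bases 2 to 8) or its 7-letter match GACTGTT.
miR-132-3p: uAACAGUCuacagccauggucg
anti-miR132-3p insert: cgaccatggctgtaGACTGTTa
scramble insert: tcgagggcgacttaaccttagg
Cyp51 site: aaagtttgaaGACTGTTtgttt
Srebf1 site: tgaatgcaatGACTGTTttttt
The anti-miR132-3p insert matched the reverse complement of the microRNA at 22 of 22 bases and the scramble insert at 5 of 22. Of the 29 members, 2 had a match, 1 in each of Cyp51 (base 1801 of a 3' UTR of 1980 bases) and Srebf1 (base 776 of 833), both without the A after the match that makes an 8mer. Across tested genes with an annotated 3' UTR, 13.0% had the 7-letter match. In CPM, which gives a gene's count relative to the size of its library, Cyp51 had 93.7 in the control group and 91.0 under the anti-miR132-3p shRNA, and Srebf1 had 6.01 and 10.6. A match is a description of the letters and does not show that the site is used.

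The table held 2 libraries per group, with 1845090 and 1846637 counts in the scramble libraries and 1732416 and 1731199 in the anti-miR132-3p libraries. Which columns are the scramble shRNA was settled by exclusion: their name gives only mCherry, which both vectors carry, and every direction rests on that reading. Counts of the 2 libraries within a group agreed within sampling noise (chi-square per degree of freedom 1.02 and 1.00, against 4.01 to 4.03 across groups), so each pair was counted as 1 sample. Each group therefore has n = 1, no SD is given, and no difference below has a replicate check. Leaving out 1 library, as done below, only takes away part of the counts of a sample and checks no replicate. Values are CPM scaled by TMM, folds are ratios of the summed counts of a group, and the intervals in parentheses are exact 95% intervals (Clopper-Pearson) that cover counting error only. A member counts as past the threshold when its ratio between the groups was at least 5 to 4 (0.32 on the log2 scale) and its interval did not hold 1. The 8 ganglion cell markers summed to 1535 to 1564 CPM in the scramble and 1604 to 1641 CPM in the anti-miR132-3p libraries, but did not move together. Slc17a6 (313 and 300.2 CPM) and Nefl (615 and 624 CPM) were nearly level, Thy1 was higher (223 and 329 CPM), Pou4f1 (39.9 and 27.2 CPM) and Isl1 (33.1 and 22.6 CPM) were lower past the threshold, and Pou4f2 had only 8 and 7 counts. Of the 8 Müller glia markers, summed at 97.7 to 101 and 88.1 to 103 CPM, Dapl1 had 0 counts and most of the sum was Glul (70.2 and 65.5 CPM). Sox9 was higher past the threshold (9.84 and 16.6 CPM, 1.69-fold, 1.09 to 2.63), and Rlbp1 had 12.0 and 7.44 CPM with an interval that held 1. The 9 microglia markers summed to 5 counts with the scramble and 65 with the anti-miR132-3p shRNA, the 7 rod markers to 225 and 8 counts with Gnat1, Pde6g and Rcvrn at 0, and the 7 amacrine markers to 1441 and 2594 CPM with Gad1, Tfap2b and C1ql2 at 0. The 5 astrocyte markers summed to 299 and 335 CPM, nearly all of it Igfbp2, the 5 oligodendrocyte markers to 33.6 and 40.3 CPM, and the 5 endothelial markers to 12 and 36 counts with Cldn5 and Cdh5 at 0. The part of the ganglion cell markers and of these other cells in the results below was not tested. In bulk samples, fewer cells of a type and less RNA per cell cannot be told apart.

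The sterol genes differed little between the groups, and 16 of the 29 had intervals that held 1. By sign alone, 14 of the 19 synthesis enzymes (73.7%) had a log2 fold change below 0, as did 3 of the 10 control, transport and turnover genes (30.0%) and 50.4% of all tested genes. Past the threshold were 2 members that were lower, Fdps and Msmo1 (6.90% of 29, against 10.2% of all tested genes), and 4 that were higher, Lss, Srebf1, Abca1 and Cyp46a1 (13.8%, against 16.7% of all tested genes). Both shares lie near or under the background, so the count is not a result about sterol genes as a set. The median log2 fold change was -0.07 over the members and -0.0030 over all tested genes. It was -0.17 over the 19 enzymes and 0.26 over the other 10 members, and with levels corrected for transcript GC content and length (below) these medians were -0.07 and 0.00027, where all tested genes had 0.04. Summed over the enzymes, the level was 2064 to 2090 CPM in the scramble libraries and 1791 to 1806 CPM in the anti-miR132-3p libraries, 1.15-fold lower (1.12 to 1.19). Summed over the other 10 it was 862 to 877 and 932 to 946 CPM, 1.08-fold higher (1.03 to 1.13). By the interval alone, with no minimum fold, 8 members were lower and 5 higher (27.6% and 17.2%, against 17.0% and 19.4% of all tested genes), with 7 of the 8 among the enzymes.

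**Figure D1:**
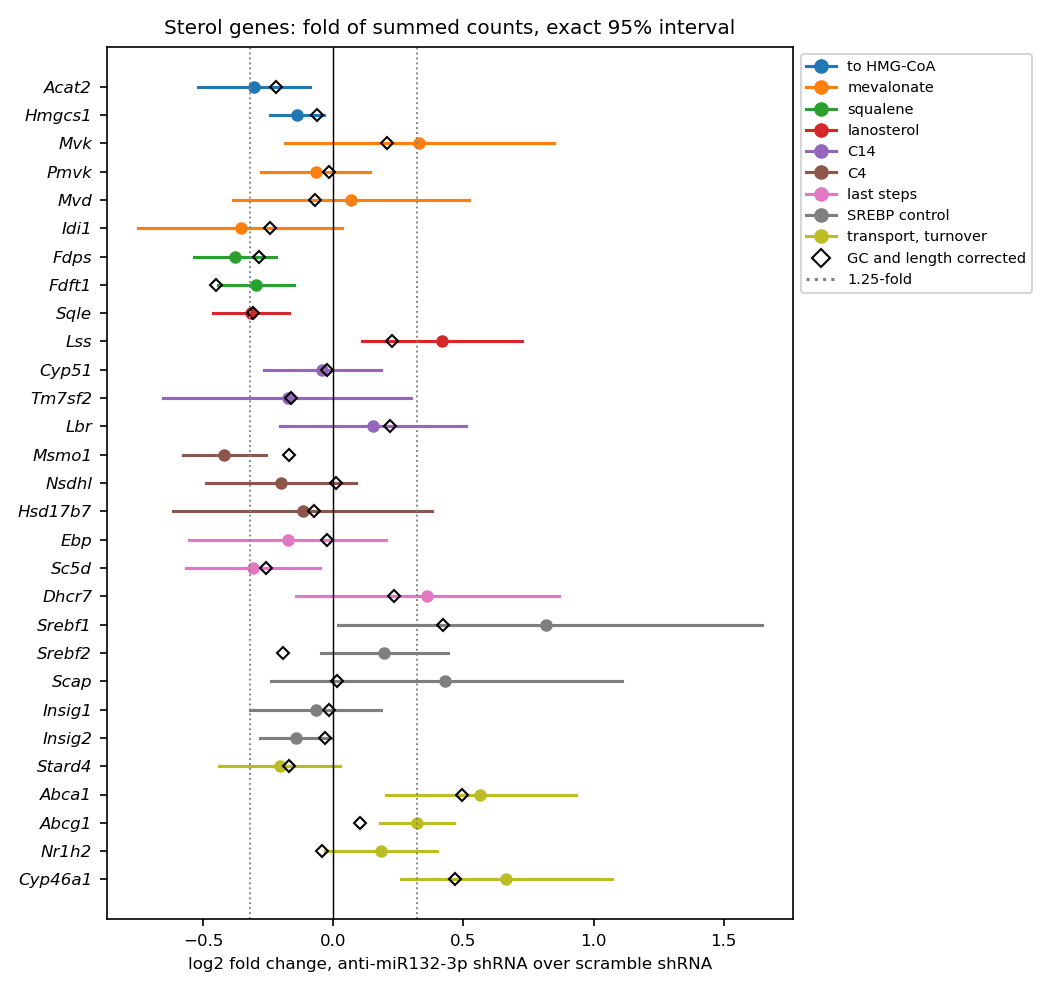
Log2 fold change of each of the 29 members (filled circles, coloured by step, with exact 95% intervals for counting error) and the same after the correction for GC content and transcript length (open diamonds). Dotted lines mark the minimum fold, 0.32 on either side of 0. Msmo1 lies lowest at -0.42 and Srebf1 highest at 0.82, and most enzymes lie left of 0.

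At the entry to the pathway both enzymes were slightly lower. Acat2, which joins acetyl-CoA units to acetoacetyl-CoA, was at 112 and 115 CPM in the scramble libraries and at 92.1 and 91.6 CPM in the anti-miR132-3p libraries. The libraries of the groups did not overlap, and the fold was 1.23 lower (1.06 to 1.43), under the threshold. Non-overlap by itself was common: in 30.6% of all tested genes both anti-miR132-3p libraries lay below both scramble libraries, and in 31.3% above. Among the members it was seen in 14 lower (48.3%) and 8 higher (27.6%) genes. Hmgcs1, which makes HMG-CoA and had the highest count of the members, was at 449 and 469.9 CPM against 407 and 428 CPM, also without overlap. Its fold was 1.102 lower (1.03 to 1.18). Of the exon bases of Hmgcs1, 12.1% are shared with the antisense gene Gm48342, and since no strand setting is known for the counting, reads of the pair cannot be told apart.

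The 4 enzymes that carry mevalonate to the isoprenyl units held none past the threshold. Idi1, which interconverts isopentenyl and dimethylallyl diphosphate, was at 40.5 and 30.6 CPM in the scramble libraries and at 30.3 and 25.2 CPM in the anti-miR132-3p libraries. The nearest libraries of the groups were thus almost level, and the fold of 1.28 lower had an interval that held 1 (0.976 to 1.68). Without the second scramble library Idi1 was past the threshold at 1.46-fold lower (1.06 to 1.99). Mevalonate kinase, Mvk, was at 16.4 against 20.6 CPM, 1.26-fold higher with an interval of 0.880 to 1.80. Phosphomevalonate kinase, Pmvk, was at 107 against 102 CPM, and the decarboxylase Mvd at 23.0 against 24.0 CPM, with intervals that held 1 on each. Summed, these 4 were at 175 to 190 CPM and 166 to 183 CPM, which overlap.

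Both enzymes that lead to squalene, and the one that oxidises it, were lower by their intervals. Fdps, which makes farnesyl diphosphate, the branch point to prenyl groups, dolichol and ubiquinone, was at 194 and 234 CPM in the scramble libraries and at 167 and 162 CPM in the anti-miR132-3p libraries. It was 1.30-fold lower (1.17 to 1.45). The second scramble library was the highest, and without it the fold was 1.18 lower (1.03 to 1.35) and under the threshold. Fdps also shares 26.7% of its exon bases with Gm43738 on the same strand, so its counts are uncertain. Fdft1, squalene synthase, was at 248.5 and 236 CPM against 208 and 187 CPM, 1.23-fold lower (1.11 to 1.36). It passed the threshold when the second scramble library was left out (1.26-fold, 1.12 to 1.42) or the first anti-miR132-3p library was (1.30-fold, 1.14 to 1.48). Fdft1 overlaps Ctsb on the opposite strand at 18.3% of its exon bases, and Ctsb was level between the groups at 1379.8 and 1353 CPM. Sqle, squalene epoxidase, the oxygen-dependent step, was at 249.6 and 236 CPM against 196 and 194 CPM. The groups did not overlap, and the fold of 1.245 lower (1.13 to 1.38) was just under the threshold. Sqle was past it without the second scramble library (1.28-fold) and without the first anti-miR132-3p library, at 1.2501.

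Lss, which closes squalene epoxide to lanosterol, went the other way from its neighbours. It was at 49.8 and 37.7 CPM in the scramble libraries and at 49.2 and 67.6 CPM in the anti-miR132-3p libraries, so the libraries overlapped. The fold of 1.34 higher (1.08 to 1.65) passed the threshold with all libraries, but was 1.17 (0.911 to 1.52) without the second scramble library and 1.12 (0.855 to 1.47) without the second anti-miR132-3p library.

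The C14 steps showed little. Cyp51, the lanosterol demethylase, was 1.03-fold lower (0.882 to 1.20). The reductase Tm7sf2 was 1.13-fold lower (0.814 to 1.57), from 23.0 to 20.3 CPM. It shares 12.1% of its exon bases with Vps51 on the same strand, which was itself higher (22.4 and 36.9 CPM). Lbr, a lamin receptor of the inner nuclear membrane with the same reductase activity, was at 35.3 against 39.2 CPM, 1.11-fold higher (0.868 to 1.43). Summed, the C14 enzymes were at 140 to 164 and 149 to 152 CPM.

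Msmo1, which oxidises the C4 methyl groups, was the member with the lowest fold change. It was at 220.0 and 206 CPM in the scramble libraries and at 166 and 153 CPM in the anti-miR132-3p libraries. The groups were well separated, at 1.34-fold lower (1.20 to 1.49), and Msmo1 was the 1 member past the threshold in each of the 4 settings with 1 library left out (1.29 to 1.39-fold lower). Its partners in C4 removal had intervals that held 1. Nsdhl, the C4 decarboxylase, was at 61.5 against 53.5 CPM, 1.15-fold lower (0.942 to 1.40), with the anti-miR132-3p libraries just below the nearer scramble library and a fold past the threshold without the second one (1.28-fold, 1.011 to 1.61). Hsd17b7, the 3-ketosteroid reductase, was at 20.5 against 18.9 CPM, 1.09-fold lower (0.769 to 1.53).

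In the last steps Sc5d, the lathosterol desaturase, was at 79.0 against 63.8 CPM, 1.24-fold lower (1.04 to 1.48), below 1 by its interval and under the threshold by its fold. Leaving out the first scramble library took it past the threshold at 1.34-fold, as did leaving out the second anti-miR132-3p library at 1.30-fold. Ebp, the sterol isomerase, was at 35.5 against 31.5 CPM, 1.13-fold lower (0.869 to 1.47). Dhcr7, which completes one branch by reducing 7-dehydrocholesterol, was at 16.9 against 21.7 CPM, 1.28-fold higher (0.906 to 1.83).

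**Figure D2:**
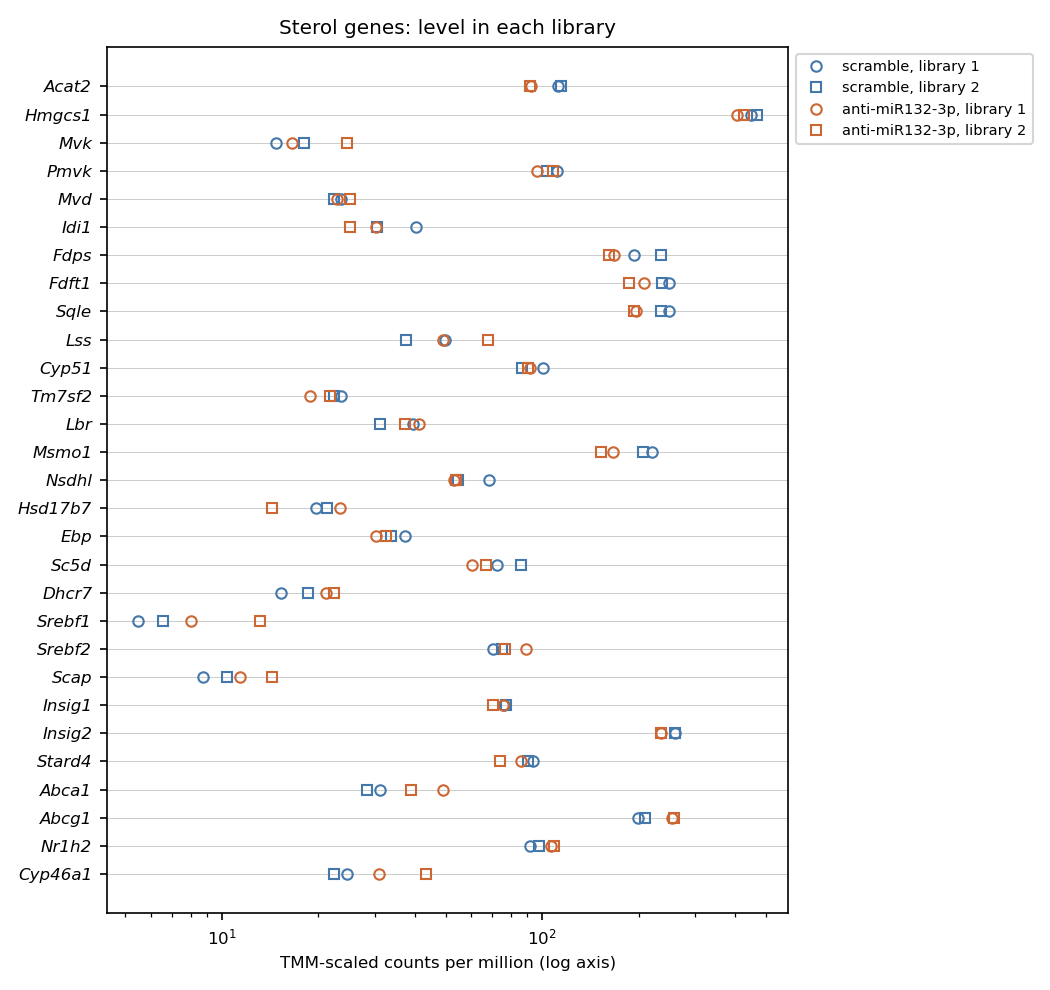
Level of each member in each of the 4 libraries, in TMM-scaled CPM on a log axis (blue scramble shRNA, orange anti-miR132-3p shRNA, circle library 1, square library 2). Msmo1, Fdft1 and Sqle show the orange points left of the blue, Abcg1 the reverse, and Lss, Mvk and Hsd17b7 show the groups mixed.

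Insig2 was among the members of highest level and the other control genes were at low to middling levels. The control genes gave no common direction. Srebf1, which encodes SREBP1, had the lowest counts of the members, 10 and 12 in the scramble libraries and 14 and 23 in the anti-miR132-3p libraries, or 5.47 and 6.55 CPM against 8.01 and 13.2 CPM. Its fold of 1.76 higher (1.012 to 3.13) barely cleared the interval rule, and it did not pass without the first scramble library (0.825 to 3.41), the second scramble library (0.943 to 4.36) or the second anti-miR132-3p library (0.630 to 2.72). Srebf2, which encodes the SREBP of cholesterol synthesis, was at 72.4 against 83.0 CPM, 1.15-fold higher (0.967 to 1.36). Scap, the escort of both SREBPs, was at 9.57 against 12.9 CPM, 1.35-fold higher with an interval of 0.846 to 2.16. The INSIG genes were nearly level. Insig1, the sterol-induced retention factor and itself an SREBP target, was at 76.5 against 73.0 CPM, 1.05-fold lower (0.882 to 1.247). Insig2, its less regulated relative, was at 260.0 and 259.8 CPM against 235 and 235 CPM, 1.105-fold lower (1.005 to 1.21). Summed, the control genes were at 420.4 to 428 and 410.0 to 419 CPM.

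Of the 5 genes of transport, efflux and turnover, 2 were higher past the threshold. Cyp46a1, the neuronal cholesterol 24-hydroxylase, was at 24.6 and 22.4 CPM in the scramble libraries and at 30.9 and 43.5 CPM in the anti-miR132-3p libraries. It was 1.58-fold higher (1.20 to 2.10), and 1.31-fold with an interval that held 1 (0.917 to 1.87) when the second anti-miR132-3p library was left out. Abca1, the transporter that loads cholesterol onto apolipoproteins, was at 31.2 and 28.4 CPM against 49.2 and 38.9 CPM, 1.48-fold higher (1.15 to 1.91), and 1.31-fold (0.951 to 1.79) without the first anti-miR132-3p library. The microglia markers that are given above moved the same way as Abca1, which phagocytes also express. The amacrine, endothelial, astrocyte and oligodendrocyte sums were also higher, and the rod sum was lower. The part of any of these cells in the fold of Abca1 was not tested. Abcg1, the transporter to lipoprotein particles and the most abundant of this step by CPM, was at 199.8 and 209.6 CPM against 255 and 257 CPM. Both scramble libraries lay below, and the fold of 1.2498 higher (1.13 to 1.38) just missed the minimum. It passed without the second scramble library (1.28-fold) and without the first anti-miR132-3p library (1.26-fold). Nr1h2, the liver X receptor beta, was at 94.8 against 107.6 CPM, 1.13-fold higher (0.978 to 1.32). Stard4, a carrier of sterol between membranes and an SREBP target, was at 92.1 against 79.8 CPM, 1.15-fold lower (0.981 to 1.36). Summed, this step was at 441 to 449 and 522 to 527 CPM, 1.18-fold higher (1.102 to 1.26), the only step of the 9 whose sum was higher.

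Composition of the transcripts moved with the fold change. Spearman's rho of the log2 fold change was 0.25 with GC content and 0.28 with transcript length, taken across tested genes, so its points are genes and not replicates. The median over the 10th of genes poorest in GC was -0.10 and over the richest 10th 0.27. The members ran from 41.9% GC in Idi1 to 60.6% in Nr1h2, with a median of 49.6% over the enzymes and 55.3% over the other 10 members, against 49.3% over all tested genes. After a spline correction for GC content and length, which brought the medians of the enzymes and of the other 10 members nearly together, 1 member was lower past the threshold, Fdft1 at 1.37-fold (1.24 to 1.51), against a background of 8.25%, and 2 were higher, Abca1 at 1.41-fold (1.096 to 1.82) and Cyp46a1 at 1.38-fold (1.05 to 1.84), against 13.8%. Msmo1 came to 1.13-fold lower (1.009 to 1.26), Fdps to 1.22-fold lower (1.09 to 1.36), Abcg1 to 1.07-fold higher (0.972 to 1.18), Lss to 1.17-fold higher (0.947 to 1.45) and Srebf1 to 1.34-fold higher (0.770 to 2.38). The log2 fold change of 4 members changed sign, Mvd, Nsdhl, Srebf2 and Nr1h2, and all 4 had intervals that held 1 before and after. By the interval alone, 6 enzymes stayed lower after it, Acat2, Fdps, Fdft1, Sqle, Msmo1 and Sc5d (20.7% of 29 members, against 12.9% of all tested genes), and 2 members were higher, Abca1 and Cyp46a1 (6.90%, against 17.7%).

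**Figure D3:**
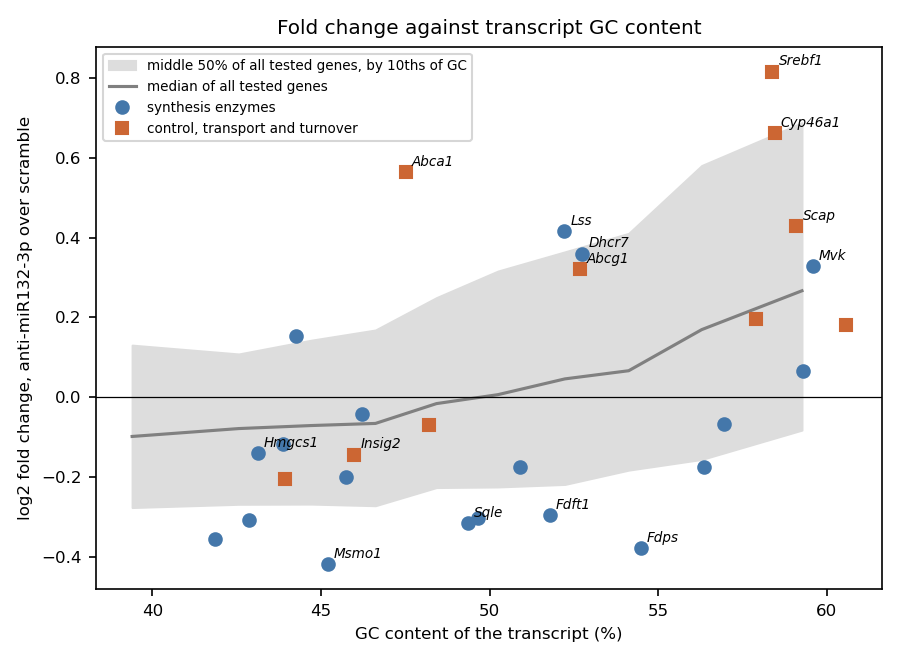
Log2 fold change of the members against the GC content of their transcript (circles enzymes, squares control, transport and turnover), over the median and middle 50% of all tested genes in 10ths of GC content. The grey line rises from -0.10 to 0.27. Fdft1, Fdps, Sqle and Msmo1 are among those below the band, and Srebf1, Abca1 and Lss are among those above it.

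Levels between genes were compared per length, as CPM per kilobase of the principal transcript, which rests on 1 annotated transcript per gene. In the scramble group Fdps led with 155 CPM per kilobase, then Hmgcs1 with 133, Msmo1 with 104, Insig2 with 96.4, Pmvk with 90.0 and Sqle with 88.0. With the anti-miR132-3p shRNA, Hmgcs1 (120.4) and Fdps (119) were level, and Insig2 (87.2) and Pmvk (85.8) stood above Msmo1 (78.0). Least abundant were Srebf1 with 1.40 and 2.46, Scap with 2.26 and 3.05, Abca1 with 2.90 and 4.29 and Hsd17b7 with 4.44 and 4.10 CPM per kilobase. Cyp46a1 went from 11.1 to 17.6, from the level of Idi1 (11.7 in the scramble group) to above that of Srebf2 (16.3 with the anti-miR132-3p shRNA). Transcript levels of the enzymes were uneven, with Lss at 9.37 and Dhcr7 at 6.02 CPM per kilobase far below Fdps in the scramble group.

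Related genes outside the 29 are set beside the shares of all tested genes past the threshold, 16.7% higher and 10.2% lower (13.8% and 8.25% after the GC and length correction). Of 12 fatty acid genes that SREBPs also control, 6 were past the threshold as higher (50%) and 0 as lower, with a median log2 fold change of 0.28 and a sum 1.30-fold higher (1.245 to 1.35). Acly, which makes cytosolic acetyl-CoA for both pathways, was at 266 against 440.4 CPM, 1.65-fold higher (1.53 to 1.79), and the desaturases Fads1 and Fads2 were 1.81-fold (1.43 to 2.31) and 1.76-fold higher (1.46 to 2.12). Elovl6, the most abundant by CPM in the scramble group, was at 282 against 302 CPM with an interval that held 1. After the GC and length correction 5 of the 12 were higher past the threshold (41.7%) and 0 lower, with a median of 0.14. Of 12 genes that use isoprenyl units elsewhere, 0 were higher and 2 lower (16.7%), the prenylation genes Chm (1.29-fold, 1.12 to 1.49) and Fnta (1.28-fold, 1.14 to 1.44), while Ggps1, which makes geranylgeranyl diphosphate, was 1.21-fold lower (1.09 to 1.34). The sum of this list was 1.12-fold lower (1.06 to 1.18). After the correction Fnta was no longer past the threshold (log2 fold change -0.16 from -0.36) and Rabggtb was higher (0.45 from 0.06), which left 1 higher and 1 lower. Of 10 genes of SREBP processing and enzyme turnover, 3 were higher (30.0%), before and after the correction: Mbtps1, the site-1 protease that cleaves SREBPs (45.4 against 74.1 CPM, 1.63-fold, 1.34 to 2.00), Erlin2 (1.31-fold, 1.15 to 1.49) and Syvn1 (24 against 57 counts). In both cases 0 were lower.

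Of 5 genes that pass electrons to sterol enzymes, Por (1.28-fold, 1.07 to 1.54) and Cyb5b (1.31-fold, 1.20 to 1.44) were higher and Cyb5r1 lower, at 110.4 against 61.0 CPM. The correction ended the call of Por (log2 fold change 0.07 from 0.36) and added Cyb5a as higher (0.52 from 0.11) and Cyb5r3 as lower (-0.34 from -0.11). Of 12 tested genes of sterol movement and lipoprotein uptake, 3 were higher (25%) and 1 lower (8.3%), the same counts as after the correction. Gramd1a and Gramd1b, carriers of plasma membrane cholesterol to the endoplasmic reticulum, were 2.12-fold (1.64 to 2.75) and 1.48-fold higher (1.21 to 1.82), and Stard3 had 43 against 74 counts. Mylip, which degrades lipoprotein receptors and is induced by liver X receptors, had 77 against 50 counts, 1.47-fold lower (1.02 to 2.14). The receptor Vldlr was level at 232 and 239.8 CPM. Of 7 tested partners and targets of liver X receptors, 1 was higher (14.3%), the sterol transporter Abcg4 (26 against 90 counts, 3.62-fold, 2.32 to 5.84), and 0 were lower, with Ncoa1 lower after the correction (log2 fold change -0.36 from -0.27). Nr1h3, the liver X receptor alpha, had 9 counts in each group. Rabggtb, Syvn1, Cyb5a, Cyb5r3, Stard3, Mylip and Abcg4 were named after their values were seen.

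**Figure D4:**
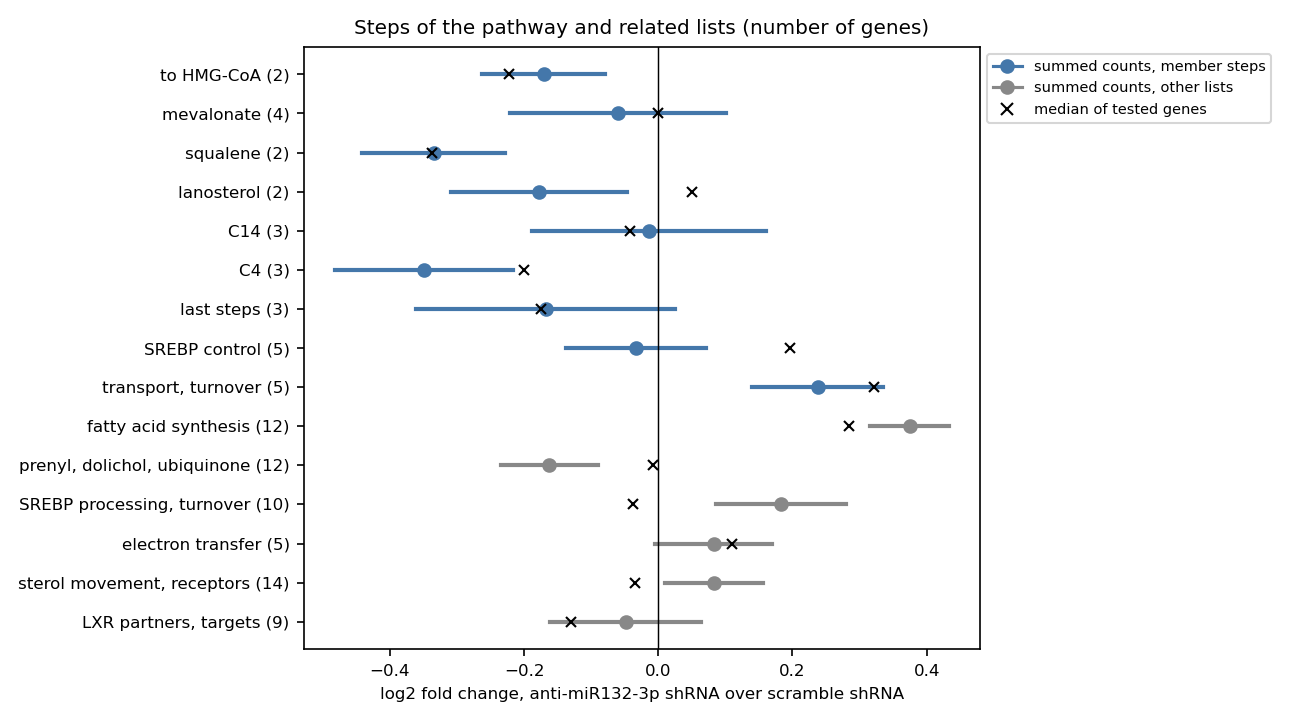
Summed log2 fold change of each step of the pathway (blue, with exact 95% intervals for counting error) and of the related lists (grey), and the median over tested genes of each (crosses), with the number of genes in parentheses. Squalene (-0.33) and C4 removal (-0.35) lie lowest among the steps, transport and turnover (0.24) and fatty acid synthesis (0.37) highest.

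Promoter windows of 300 bases (250 before to 50 after a start, RefSeq, GRCm38.p6, a build older than that of the counts) were at hand for 24 of the 29 members. They were searched on both strands for CCAAT, the letters bound by NF-Y, a partner of SREBPs, for CACNCCA, the core of the classical sterol regulatory element, for the E-box CACGTG and for GGGCGG, the Sp1 box. Counted over windows, since some genes have several, CCAAT was in 21 of 32 member windows (65.6%) against 37.5% of the windows of tested genes, and GGGCGG in 26 (81.2%) against 62.8%. CACNCCA was in 7 (21.9%) against 17.4%, and CACGTG in 7 (21.9%) against 10.1%. Over genes, CCAAT was found for 15 of 16 enzymes and 5 of 8 other members with a window. Enzymes with fold changes on either side of 0, such as Msmo1 and Lss, held it. The only enzyme with a window but without it was Acat2, which was lower. No window was at hand for Fdps, Fdft1, Sqle, Abcg1 and Stard4, so these counts leave out several of the lower enzymes. The windows are shown for Msmo1 and Idi1, which had the lowest fold changes among members with a window, and for Abca1 and Cyp46a1 among the highest, with CCAAT or CACNCCA on either strand in capitals. Srebf1 has 3 windows and is not shown.
Msmo1 (chr8:64733529-64733828, minus strand): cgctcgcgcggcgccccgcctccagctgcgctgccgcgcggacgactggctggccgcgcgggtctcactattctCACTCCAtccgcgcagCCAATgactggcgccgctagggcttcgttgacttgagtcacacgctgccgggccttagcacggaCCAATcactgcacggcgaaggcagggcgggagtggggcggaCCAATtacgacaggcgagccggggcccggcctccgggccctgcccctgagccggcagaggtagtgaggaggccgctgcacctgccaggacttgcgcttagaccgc
Idi1 (chr13:8885356-8885655, plus strand): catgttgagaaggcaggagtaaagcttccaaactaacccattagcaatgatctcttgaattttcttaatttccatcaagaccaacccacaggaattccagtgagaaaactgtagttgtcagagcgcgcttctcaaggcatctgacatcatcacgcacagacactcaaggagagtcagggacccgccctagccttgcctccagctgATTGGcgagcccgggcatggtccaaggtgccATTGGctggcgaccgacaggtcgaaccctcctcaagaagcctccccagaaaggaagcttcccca
Abca1 (chr4:53159846-53160145, minus strand): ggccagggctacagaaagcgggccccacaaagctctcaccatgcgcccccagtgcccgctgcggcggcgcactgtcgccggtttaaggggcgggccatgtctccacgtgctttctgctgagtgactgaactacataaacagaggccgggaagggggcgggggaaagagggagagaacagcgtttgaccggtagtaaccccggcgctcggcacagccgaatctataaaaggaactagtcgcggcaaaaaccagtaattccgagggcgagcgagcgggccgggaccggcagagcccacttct
Cyp46a1 (chr12:108334066-108334365, plus strand): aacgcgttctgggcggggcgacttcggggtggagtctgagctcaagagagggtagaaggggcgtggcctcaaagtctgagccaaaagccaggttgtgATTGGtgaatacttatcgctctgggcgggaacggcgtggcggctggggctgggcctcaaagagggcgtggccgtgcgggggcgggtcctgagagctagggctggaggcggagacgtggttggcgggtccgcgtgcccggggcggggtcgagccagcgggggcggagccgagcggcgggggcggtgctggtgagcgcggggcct
Msmo1 held CCAAT letters at 3 places and CACNCCA at 1, Idi1 CCAAT at 2, Cyp46a1 CCAAT at 1, and Abca1 neither motif. A match does not show that a factor binds there.

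A count model was also fitted on the 4 libraries. The quasi-likelihood test of edgeR, which here compares the reads of these libraries and not the conditions, called 6 members lower (Acat2, Hmgcs1, Fdps, Fdft1, Sqle and Msmo1; 20.7%, against 10.4% of all tested genes) and 3 higher (Abca1, Abcg1 and Cyp46a1; 10.3%, against 13.5%) at a Benjamini-Hochberg adjusted p under 0.05 over all tested genes. Its spread was measured within pairs that differed by no more than sampling noise. Few or none of these calls held with 1 library left out, where 1 group has only 1 library.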

How the data were processed

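Messenger RNA counts of the 4 libraries described above were used, 2 with a scramble shRNA and 2 with an anti-miR132-3p shRNA. The authors deposited raw counts, whole numbers for each gene. HISAT2 2.2.1, Trimmomatic 0.39, Cuffdiff, Cuffnorm, Cufflinks and SAMtools 1.10 are listed, with build GRCm39, per the submitters' processing notes. Which program counted reads, with which annotation release and strand option, is not given in the sources used here.

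Symbols came from GENCODE M21, which named 51486 identifiers. GC content, length and 3' UTRs came from its APPRIS principal transcripts, and exon overlap from its annotation. Genes passed filterByExpr and libraries were scaled by TMM (edgeR 4.0.16, R 4.3.3, limma 3.58.1). The counts of a pair were summed, since the pair counts as 1 sample. The minimum fold was 1.25 and the exact intervals were at 95%. edgeR's glmQLFit and glmQLFTest were fitted on all tested genes, with DESeq2 1.42.0 as an alternative. The GC and length correction used splines with 4 degrees of freedom per library on log2 CPM and covered 98.7% of tested genes. The procedures were tested on simulated counts with 200 changed genes. Python 3.11.15 read the sequences.

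Every member is named, with values in each library for those past the threshold, called by edgeR, or among the 3 highest and lowest fold changes. Of each related list, up to 3 genes farthest from 0 and 2 of highest level, with a mean of at least 50 counts, could be named. The members, lists, threshold and tests were chosen with earlier results of these data known. No label says that libraries came from separate animals. Alternatives covered scaling, filters, thresholds, tests, left-out libraries, a replicate block and the GC and length correction.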

Additional observations from a re-analysis of the deposited data

How the results depend on the processing

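The main counts past the threshold were 2 members lower and 4 higher, beside 1162 and 1913 of all tested genes. Counts over all tested genes are in parentheses for the settings that follow. Upper quartile scaling gave 5 lower (1310). The GC and length correction gave 1 lower (930) and 2 higher (1551), and a minimum of 1.5-fold gave 0 lower (426) and 2 higher (1230). With no minimum fold 8 were lower (1948), and with no demand on the interval 7 were higher (2737). Leaving out 1 library gave 3 to 5 lower (1009 to 1067) and 1 to 4 higher (1596 to 1658). The members' median was then -0.1067 to -0.02805. Under the other scalings and filters both counts moved by less than 1.5 times. The edgeR counts were 6 lower and 3 higher, with 13 members and 4154 of all tested genes at an unadjusted p under 0.05. They became 0 and 0 with no low-count filter (10 members and 5192 genes at an unadjusted p under 0.05). With DESeq2 they were 1 and 0 (5 members and 1872 genes), and 3 and 1 with the GC and length correction (8 members and 3543 genes). Few or none of the edgeR calls held with 1 library left out. With all 4 libraries and an adjusted p under 0.01, edgeR called 4 lower and 1 higher. The replicate block gave 6 lower and 4 higher (13 members and 4317 genes at an unadjusted p under 0.05). Its numbers are only shared labels: the deviations of same-numbered libraries correlated at 0.01. The cause of these changes was not tested. The scaling alternatives shifted all members alike and by little, Msmo1 for example from -0.42 to -0.44 (upper quartile) or -0.39 (library totals). A member past the threshold could therefore not change sign under them. At this depth members had 10 to 861 counts in a library, which limits Srebf1, Scap, Mvk, Dhcr7 and Hsd17b7 most.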
